A study of Mus musculus with 6 samples.

Results

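Sertoli cells are the somatic cells that enclose the germ cells of the testis, and the 10 genes described here, Clu, Trf, Ptgds, Aard, Mro, Vnn1, Erbb4, Defb19, Defb36 and Col9a3, are used as markers of them, most for what the cells secrete or carry on their surface. Members were chosen by gene name, taking every array probe whose platform symbol was one of these. The array held 13 such probes among 45281, for 9 of the 10 genes, and Clu, which encodes the secreted chaperone clusterin, is not analysed here because no probe was annotated to it. A probe was tested when its signal stood above the array's negative controls (detection p under 0.05) on at least 3 of the 6 arrays. By that rule 8 of the 13 probes, for 7 genes, were tested among 19889 probes in all, and each of the 8 was above background on all 6 arrays. The other 5 probes were both Erbb4 probes, the only Vnn1 probe and 2 of the 3 Col9a3 probes.

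The animals were mouse fetuses of mixed B6/CD1 descent, collected at embryonic day 14.5, and each sample was the pair of testes of 1 fetus, freed from the mesonephros. The 3 overexpressors were Amh-cre;RosaNICD/+ and the 3 controls were RosaNICD/+, so both groups carried 1 floxed RosaNICD allele, and each of 3 dams gave 1 fetus of each genotype. The Amh promoter directs the Cre recombinase to Sertoli cells, where recombination switches on RosaNICD, the intracellular and constantly active part of the NOTCH1 receptor. Amh-cre was present in the overexpressors alone, so the Cre transgene and NOTCH1 activity cannot be told apart as the source of a difference. RNA of the whole testis pair was hybridised, so fewer Sertoli cells and less RNA per Sertoli cell cannot be told apart.

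Fetal Sertoli cells differentiate under the transcription factor SOX9, arrange themselves into cords around the germ cells, and feed, signal to and shield them through secreted and membrane proteins. Trf encodes transferrin, which carries iron to cells. Ptgds encodes lipocalin-type prostaglandin D synthase, whose product prostaglandin D2 is known to sustain SOX9 in the developing testis. Defb19 and Defb36 encode beta-defensins, small secreted peptides. Vnn1 encodes pantetheinase, an enzyme anchored in the outer cell membrane, Erbb4 a receptor tyrosine kinase for neuregulins, and Col9a3 a chain of collagen IX. Aard encodes an alanine- and arginine-rich protein, and Mro encodes maestro, known from mouse as a nucleolar protein of the male gonad, so Mro is a Sertoli marker but not a secreted or surface one.

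The upstream sequences of Ptgds and Defb36 are shown as a description of the letters ahead of each gene. In the comparison below these genes stood on opposite sides of 0, but neither changed at an adjusted p under 0.05 in limma, so the letters are not tied to a direction. Of the 10 genes 3 matched the RefSeq promoter table (GRCm38.p6), and these 2 were above background. The 250 bases before each start are given, 5′ to 3′, for Ptgds at chr2:25469750-25469999 (minus strand) and for Defb36 at chr2:152604077-152604326 (plus strand). Capitals mark matches, on either strand, to CAAGGTC, letters bound by the gonadal nuclear receptor NR5A1, and to ACAAAG, a core bound by SOX proteins.
Ptgds: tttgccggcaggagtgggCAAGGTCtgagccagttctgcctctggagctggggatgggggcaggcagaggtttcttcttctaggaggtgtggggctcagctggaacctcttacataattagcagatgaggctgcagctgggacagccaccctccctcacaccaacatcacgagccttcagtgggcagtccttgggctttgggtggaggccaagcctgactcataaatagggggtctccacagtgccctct
Defb36: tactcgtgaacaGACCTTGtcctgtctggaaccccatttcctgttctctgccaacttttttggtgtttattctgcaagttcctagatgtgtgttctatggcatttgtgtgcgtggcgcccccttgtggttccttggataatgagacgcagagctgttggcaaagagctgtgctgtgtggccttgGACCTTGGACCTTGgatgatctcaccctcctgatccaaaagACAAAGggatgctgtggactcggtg

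The Ptgds sequence held 1 match to CAAGGTC and the Defb36 sequence held 3, all on the minus strand of the latter, with 2 of them directly next to each other. ACAAAG was found 0 times ahead of Ptgds and 1 time ahead of Defb36. TGGGAA, the core letters bound by RBPJ, the DNA-binding partner of active NOTCH1, was found 0 times in both. Among 32536 different promoter sequences of the same length, 3.34% held CAAGGTC, 16.5% held ACAAAG and 21.6% held TGGGAA. The 3 motifs do not overlap one another here. They were chosen after the sequences had been seen, and a match is a description of letters and not a binding site.

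All arrays had similar sensitivity, with 43.0 to 44.8% of probes above background and a median of 41 to 42 beads per probe. Notch1 had a log2 intensity of 8.0 ± 0.31 in controls and 8.81 ± 0.19 in overexpressors (SD, n = 3), with an adjusted p of 0.162 in limma. Where its probe lies relative to the transgene is not known here. Hey1, a repressor that NOTCH induces, rose by 1.27 ± 0.15 (SE) on the log2 scale (limma adjusted p = 0.00878). The defining Sertoli markers Amh, Sox9 and Dhh were above background on all 6 arrays.

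The comparison asks whether the RNA of these Sertoli markers differs in the whole testis when NOTCH1 is held active in Sertoli cells. Of the 7 genes tested, 0 changed at an adjusted p under 0.05 in limma, against 0.568% of all probes and 0.727% of all genes. With the dam as a block, which sets each overexpressor against its own littermate, 0 changed as well, against 0.789% of probes and 1.05% of genes. At an unadjusted p under 0.05 there were 2, Aard and Defb36, against 9.46% of all genes, and with the block 3, adding Ptgds, against 14.7%. Of the 7 genes 3 were higher and 4 lower, the median log2 difference was -0.0054, and over all genes tested it was -0.0032. Log2 differences here are overexpressor minus control after background correction and quantile normalization, each with its SE. The 7 ranged from -0.53 to 0.44, and the 95% intervals given below show how large a difference each could still hold.

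Aard had the clearest separation of the groups. Its log2 intensity was 13.40, 13.24 and 13.35 in the controls and 13.71, 13.77 and 13.83 in the overexpressors, given here and below in the order of dams 1, 2 and 3. Each overexpressor was above each control, and 1 of the 7 genes had groups that did not overlap, against 14.9% of all genes. The log2 difference was 0.44 ± 0.12, or 1.36-fold, with a 95% interval of 0.16 to 0.73 (adjusted p = 0.283, and 0.186 with the block). Within the dams it was 0.31, 0.53 and 0.48. The bead-to-bead standard error of the Aard signal was 3.25 to 4.67% on any array, from 41 to 50 beads, which measures the array and not the spread between fetuses. Aard passed the threshold in 2 of the alternatives, with a prior variance that follows intensity (adjusted p = 0.0304, where 1.02% of probes passed) and in the authors' processed table (adjusted p = 0.0492, where 0.789% passed). With any 1 array left out its log2 difference stayed between 0.40 and 0.48, with adjusted p from 0.412 to 0.572.

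**Figure D1:**
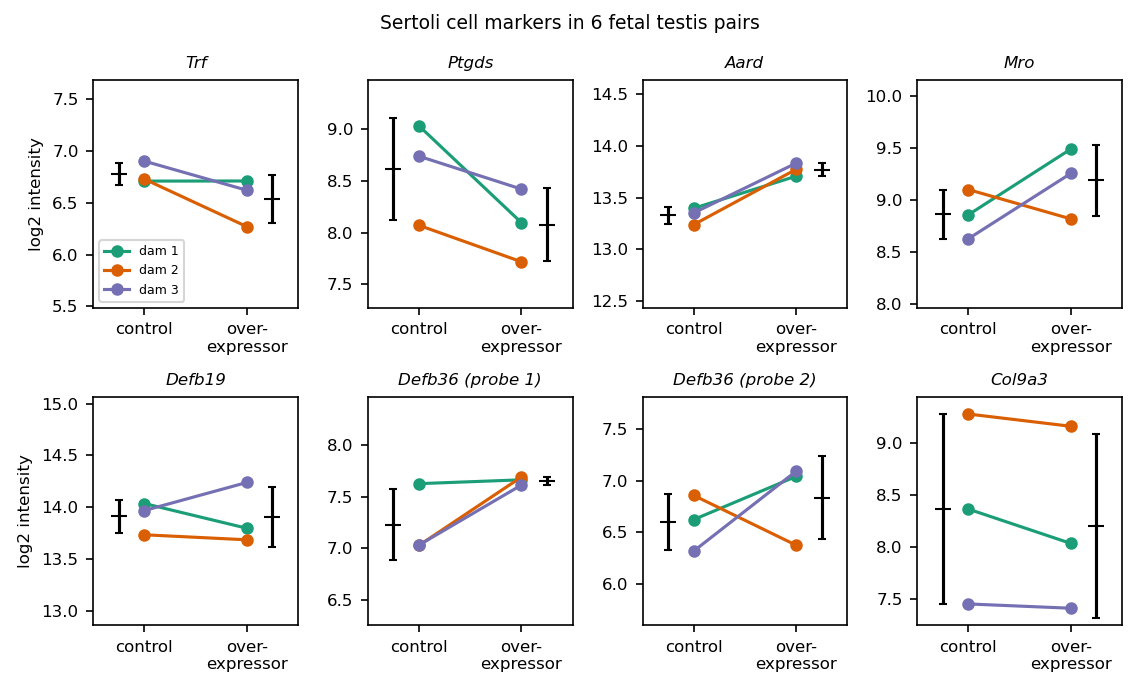
Log2 intensity of the 8 tested probes (vertical axes, each spanning 2.2 log2 units) in controls and overexpressors, with a line joining the littermates of each dam and black bars for the mean and SD of 3 animals. Aard was higher in each litter, by 0.31, 0.53 and 0.48, without overlap of the groups, while Col9a3 was ordered by dam in both groups.

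Ptgds had the lowest log2 difference of the 7. Its log2 intensity was 9.03, 8.07 and 8.74 in controls and 8.10, 7.72 and 8.42 in overexpressors. Each overexpressor was below its littermate, by 0.93, 0.35 and 0.32 on the log2 scale, but controls and overexpressors overlapped because dam 2 was low in both groups. The log2 difference was -0.53 ± 0.27, with a 95% interval of -1.15 to 0.08 (adjusted p = 0.601). With the block the interval was -0.92 to -0.15 (adjusted p = 0.224), which leaves out 0 for this single gene but does not pass over all probes. Control 1 had the highest signal of the 6, and without it the log2 difference was -0.33, without overexpressor 2 it was -0.35, and without control 2 it was -0.81. The Ptgds probe rested on 25 to 46 beads, with a bead standard error of 4.79 to 9.78%.

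Trf, the transferrin gene, did not separate the groups. Transferrin signal on the log2 scale was 6.71, 6.73 and 6.90 in controls and 6.71, 6.27 and 6.62 in overexpressors. Overexpressor 2 was the lowest of the 6, and the littermates of dam 1 differed by 0.0010. The log2 difference was -0.25 ± 0.16, with a 95% interval of -0.60 to 0.11 (adjusted p = 0.680). It was -0.11 without overexpressor 2, -0.13 without background correction and -0.15 in the authors' processed table.

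Defb19 encodes a beta-defensin known in mouse from the Sertoli cells of the fetal testis. Log2 intensities were 14.04, 13.73 and 13.97 in controls and 13.80, 13.69 and 14.24 in overexpressors. The groups overlapped throughout, and the within-dam differences of -0.24, -0.049 and 0.27 had mixed signs. The log2 difference was -0.0054 ± 0.18, with a 95% interval of -0.41 to 0.40 (adjusted p = 0.995), so a fold below 0.752 or above 1.32 lies outside the interval.

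Defb36 was measured by 2 probes that did not give the same order of animals. On the first probe the log2 intensity was 7.62, 7.03 and 7.03 in controls and 7.66, 7.69 and 7.61 in overexpressors. The 3 overexpressors lay within 0.08 of each other, and control 1 lay among them while the other two controls were lower. The log2 difference was 0.43 ± 0.18, with a 95% interval of 0.012 to 0.84 (adjusted p = 0.510, and 0.301 with the block). On the second probe the values were 6.62, 6.86 and 6.32 in controls and 7.04, 6.38 and 7.09 in overexpressors. That probe was higher in dams 1 and 3, by 0.42 and 0.77, and lower in dam 2, by 0.48, where the first probe was higher by 0.66. Its log2 difference was 0.24 ± 0.22 (adjusted p = 0.812). The mean difference had the same sign on both probes, but its size moved with the setting. On the first probe it was 0.28 without background correction and 0.26 in the authors' processed table. On the second it was 0.13 and 0.11 there, 0.10, 0.11 and 0.13 without control 3, overexpressor 3 and overexpressor 1, and 0.36 and 0.47 without control 2 and overexpressor 2.

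Mro, the maestro gene, had littermate differences of both signs. Its log2 intensity was 8.86, 9.10 and 8.63 in controls and 9.49, 8.82 and 9.26 in overexpressors. Dams 1 and 3 had higher overexpressors, by 0.63 each, and dam 2 a lower one, by 0.28. The log2 difference was 0.33 ± 0.20, with a 95% interval of -0.14 to 0.79 (adjusted p = 0.675). It was 0.18 without overexpressor 1, 0.21 without control 3 and 0.51 without overexpressor 2.

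Vnn1 and Erbb4, the surface enzyme and the receptor of the group, were not above background on any array. The Vnn1 probe had raw signals of 87.0 to 116 with detection p from 0.218 to 0.893. The 2 Erbb4 probes had raw signals of 88.1 to 117 and 86.2 to 111, with detection p from 0.251 to 0.951 and from 0.338 to 0.923. No fold is given for either gene, since both groups were below background. After normalization the Vnn1 signal was 4.39, 4.36 and 4.32 in controls and 4.58, 4.62 and 4.50 in overexpressors. With every array below the detection threshold, the order of these values is not read as a difference in Vnn1 RNA.

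Col9a3 varied more between litters than between genotypes. On its 1 tested probe the log2 intensity was 8.37, 9.28 and 7.45 in controls and 8.03, 9.17 and 7.41 in overexpressors. Both animals of a litter had similar values. Dam 2 was the highest and dam 3 the lowest in both groups, with dam means of 8.20, 9.23 and 7.43. Overexpressor minus control within the dams was -0.33, -0.12 and -0.041. The log2 difference between the groups was -0.16 ± 0.52, with a 95% interval of -1.36 to 1.03, which narrowed to -0.45 to 0.13 with the block (adjusted p = 0.951, and 0.580 with the block). A limma F test of the dams, adjusted over all probes and chosen after these values were seen, gave an adjusted p of 0.0349. In that test 0.246% of all probes differed between dams, and Col9a3 was the 1 of 8 member probes that did. Col9a3 did not pass when any 1 array was left out or when dim probes were kept.

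Of the other two Col9a3 probes, one was above background on 2 arrays, control 1 and overexpressor 3, and the other on 0. Tcfl5, a transcription factor gene known for its activity in male germ cells, lies next to Col9a3 on chromosome 2, and their ends overlap in the gene table. It is named because of its values, which were 8.04, 9.04 and 7.77 in controls and 7.63, 9.07 and 7.15 in overexpressors on the log2 scale, again highest in dam 2 and lowest in dam 3 of both groups, with an adjusted p of 0.0745 between dams. Where the Col9a3 probe lies relative to the overlap is not known here, so signal from both genes cannot be told apart. The other neighbours Ogfr, Mrgbp and Dido1 did not pass the test between dams (adjusted p = 0.991, 0.712 and 0.652).

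**Figure D2:**
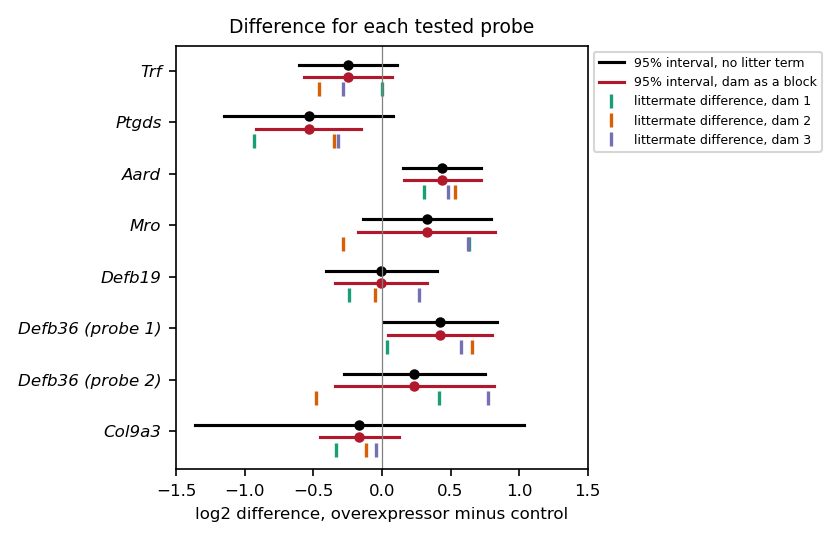
Log2 difference between overexpressors and controls (horizontal axis) for the 8 tested probes, with 95% intervals without a litter term (black) and with the dam as a block (red), and coloured ticks for the difference of each pair of littermates. The Col9a3 interval shrinks from -1.36 to 1.03 down to -0.45 to 0.13 once littermates are compared.

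Of the 7 genes, 4 had the same sign in all 3 dams, against 39.1% of all genes: Aard and the first Defb36 probe were higher in each litter, and Ptgds and Col9a3 lower, while the second Defb36 probe had mixed signs. The 2 that were higher encode a secreted peptide and the alanine- and arginine-rich protein, and the 2 that were lower encode a secreted enzyme and a matrix chain. Trf, Mro and Defb19 had mixed signs. Of the 37 protein-coding genes up to 2 places away from a member on its chromosome, 19 were tested, and in limma 0 changed with or without the block. At 2 places from Aard on either side, Rad21, which encodes a cohesin subunit, stood at -0.14 and Med30, which encodes a Mediator subunit, at 0.05. The genes directly next to Aard, Gm52217 and Slc30a8, were not tested.

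By the root mean square difference of mean-centred log2 intensities over the 6 arrays, the genes closest to Aard among 10685 were Rc3h2 (0.035) and Emc9 (0.041), at log2 differences of 0.44 and 0.48. Those closest to Ptgds were Lrrc75b (0.157) and Egr1 (0.161), at -0.62 and -0.51. None of these 4 passed the test in limma (adjusted p from 0.214 to 0.457). Genes picked this way have log2 differences close to the member's by construction, so these values are a description and not separate evidence.

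Genes that work with the members were read from lists chosen with earlier results of these data known. For Ptgds, of 19 genes of prostaglandin synthesis and reception 16 had a probe and 7 were tested. Of the 7, 0 passed in limma, 3 lay above 0 and 4 below, and the median log2 difference was -0.0043. Tbxas1, which encodes thromboxane synthase, stood at -0.33 ± 0.19 and was above background in 3 controls and 1 overexpressor. Slco2a1, a prostaglandin transporter gene, stood at -0.18 ± 0.14, with a second probe at 0.05 ± 0.15. Ptgdr2, which encodes a receptor of prostaglandin D2, was above background on 0 arrays, as was Hpgds, which encodes the other prostaglandin D synthase, and Ptgdr, the other receptor gene, on 1.

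For Trf, of 18 genes of iron uptake, storage and export 15 were tested, 11 were higher, 4 lower and 0 passed (median 0.06). Tfrc, the transferrin receptor gene, stood at 0.35 ± 0.14 (adjusted p = 0.50), with a second probe at 0.50 ± 0.15, and Steap2, a metalloreductase gene, at -0.22 ± 0.14. For Erbb4, of 17 ERBB receptor, ligand and feedback genes 10 were tested, 6 were higher, 4 lower and 0 passed (median 0.03). Lrig1, which encodes a negative regulator of ERBB receptors, stood at -0.35 ± 0.15 and the neuregulin gene Nrg4 at -0.38 ± 0.19. A second Nrg4 probe stood at -0.36 ± 0.15, and each of these Nrg4 probes was above background on only 3 arrays. For Vnn1, 7 of 11 pantetheine and coenzyme A genes were tested and 0 passed (median -0.00094), with the pantothenate kinase genes Pank4 at -0.21 ± 0.13 and Pank2 at -0.18 ± 0.12.

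For Col9a3, 7 of 14 collagen IX and cartilage matrix genes were tested and 0 passed (median 0.09). Matn4, a matrilin gene, stood at -0.64 ± 0.26 and was above background on 4 arrays. Col2a1, the collagen II gene, stood at 0.22 ± 0.18 and was above background on 5. Its other probes, each above background on 4 arrays, stood at 0.37 ± 0.25 and 0.54 ± 0.18 and did not pass either. For Clu, 7 of 10 clusterin and lipoprotein receptor genes were tested and 0 passed (median -0.03), with the sorting receptor gene Sort1 at 0.28 ± 0.12 and Vldlr at -0.15 ± 0.13. Of the maestro family that Mro belongs to, 6 genes had a probe and 0 were tested.

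Among the beta-defensins other than the members, 40 of 41 had a probe but only 3 were tested. Defb42 rose, by 0.86 ± 0.14 on the log2 scale (limma adjusted p = 0.0433), which is 1 of 3 against 0.555% of all genes called higher. Its log2 intensity was 6.26, 6.14 and 6.06 in controls and 7.0, 6.86 and 7.17 in overexpressors, so the groups did not overlap. The Defb42 call was lost with the block (adjusted p = 0.0565), on leaving out any single array (0.181 at most) and when dim probes were kept (0.0630), and over all alternatives its adjusted p ranged from 0.0294 to 0.181. Without background correction its log2 difference was 0.45. Defb20 stood at -0.20 ± 0.23 and Defb25, named after its values were seen, at -0.12 ± 0.17. Defb42 lies on chromosome 14, apart from Defb19 and Defb36, which belong to a row of 11 beta-defensin genes on chromosome 2. All 11 had a probe, and 4 were tested: Defb19, Defb36 and its neighbour Defb25 were above background on all 6 arrays, and Defb20 on 3. Defb45, which lies between Defb19 and Defb36, was above background on 0. Near-identical members of a gene family can share probe signal.

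Other Sertoli markers differed in both directions. Of 35 such genes 30 had a probe and 28 were tested, and the log2 difference was above 0 for 13 and below 0 for 15 (median -0.08). In limma 2 rose, 2 fell and 24 did not pass, against 0.555% and 0.173% of all genes. Several of these genes entered the list because earlier results of these data named them, so the count is not independent evidence. Cst9, a cystatin gene of Sertoli cells, rose by 0.83 ± 0.13 (adjusted p = 0.0358) and the related Cst12 by 2.10 ± 0.33 (adjusted p = 0.0397). The Cst12 difference was 1.03 without background correction (adjusted p = 0.0526), and its call was also lost in the authors' processed table (adjusted p = 0.0559). Pdgfa, which encodes a growth factor chain that acts on interstitial cells, fell (-1.06 ± 0.17, adjusted p = 0.0433), as did Cbln4, a cerebellin gene (-1.20 ± 0.20, adjusted p = 0.0474).

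With the block 2 of the 28 rose and 4 fell, against 1.05% of all genes called in either direction. The 2 that rose were again Cst9 and Cst12, and Cbln4 again fell (adjusted p = 0.0267). Hsd17b3, which encodes the enzyme that completes testosterone synthesis, fell there (-1.0 ± 0.11, adjusted p = 0.0247), as did Sox8, a relative of Sox9 (-0.95 ± 0.11, adjusted p = 0.0271), and Hsd17b1, an enzyme gene of oestrogen synthesis (-1.32 ± 0.19, adjusted p = 0.0449). Pdgfa did not pass there (adjusted p = 0.0548). Of 15 settings, the main fit included, Hsd17b1 passed in 1, Sox8 in 3 and Hsd17b3 in 8. Hsd17b1 had an adjusted p of 0.293 in limma without the block. Without background correction the differences of Hsd17b3 and Sox8 were -0.60 and -0.47. A second Sox8 probe stood at -0.20 ± 0.20 (SE without the block). The Cst9 and Cbln4 calls without the block were lost when any single array was left out, and those of Cst12 and Pdgfa were kept only without overexpressor 3. With dim probes kept, Cst9 alone of these 4 passed (adjusted p = 0.0358).

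**Figure D3:**
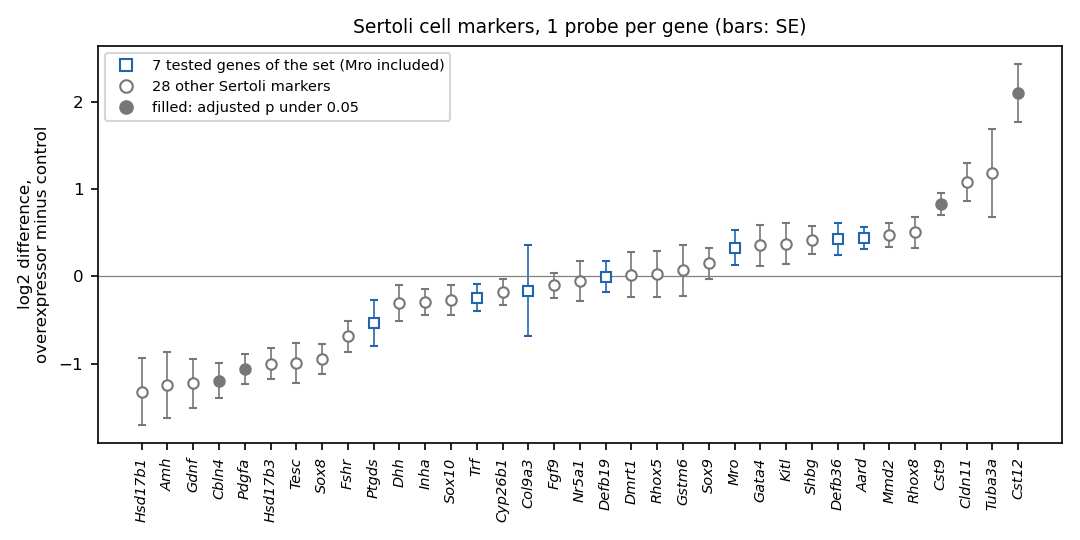
Log2 difference (vertical axis, overexpressor minus control, bars for the SE) of the 7 tested genes of the set, Mro included (blue squares), and of 28 other Sertoli markers (grey circles), ordered by value, with filled symbols for an adjusted p under 0.05. The 7 lie between -0.53 and 0.44, and the 4 filled points are Cbln4, Pdgfa, Cst9 and Cst12.

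Levels of other cell types were read as the summed normalized intensity of their markers. For the Sertoli markers Amh, Sox9 and Dhh the controls summed to between 6228 and 8405 and the overexpressors to between 5694 and 8209, and the littermate ratios were 1.12, 0.914 and 0.977. The 3 genes did not all lie on the same side of 0. Amh, which encodes the anti-Müllerian hormone, stood at -1.24 ± 0.38 and was lower in each litter, at -1.59, -1.53 and -0.61 (adjusted p = 0.320, and 0.0749 with the block). Dhh, which encodes a hedgehog ligand, stood at -0.31 ± 0.21, also lower in each litter, and Sox9 at 0.15 ± 0.18. Most of the summed signal came from the Sox9 probe. For germ cells, with 10 of 12 markers tested, the controls summed to between 12858 and 23079 and the overexpressors to between 8832 and 14505, with ratios of 0.658, 0.628 and 0.687. Of these markers 9 were lower and 1 higher, 0 passed without the block, and with it Dnd1 (-1.06 ± 0.15) and Dppa4 (-1.08 ± 0.13), genes of early germ cells, fell. Dppa4 had the highest control mean of the 10, at a log2 intensity of 12.8, and so weighed most in the control sums. The markers did not shift alike. Kit was the 1 that was higher, at 0.73 ± 0.19 (limma adjusted p = 0.249, and 0.205 with the block). It was higher in each litter, by 0.76, 1.23 and 0.20. Tdrd5 was lowest, at -1.90 ± 0.40, while Ddx4 stood at -0.24 ± 0.28, Pou5f1 at -0.16 ± 0.30 and Dazl at -0.05 ± 0.26 (SE without the block). The germ cell sum was highest in dam 2 of both groups, where Col9a3 was highest and Ptgds lowest, and its part in those values was not tested.

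For the mesonephros and duct epithelium, with 4 of 7 markers tested, the controls summed to between 759 and 802 and the overexpressors to between 351 and 430. Cdh1 stood at -0.93 ± 0.17, with a second probe at 0.22 ± 0.25, Lhx1 at -1.38 ± 0.31, and Pax8 and Cdh16 at -0.029 and -0.024, and 0 of the 4 passed. Most of the summed signal came from the Lhx1 and Cdh1 probes, with control means of 8.96 and 7.76 on the log2 scale. Pax8 and Cdh16, at 4.85 and 5.19, were each above background in 1 overexpressor, so the lower sums reflect Lhx1 and Cdh1 and not all 4 markers. The lower sums are therefore not read as a loss of duct tissue. The part of these shifts in the members' values was not tested. Fetal Leydig cell markers, 5 of 6 tested, had littermate ratios of 1.01, 0.893 and 1.05, and 0 passed. Of the interstitial, myoid, endothelial, macrophage, erythroid and granulosa markers 0 passed in either fit.

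**Figure D4:**
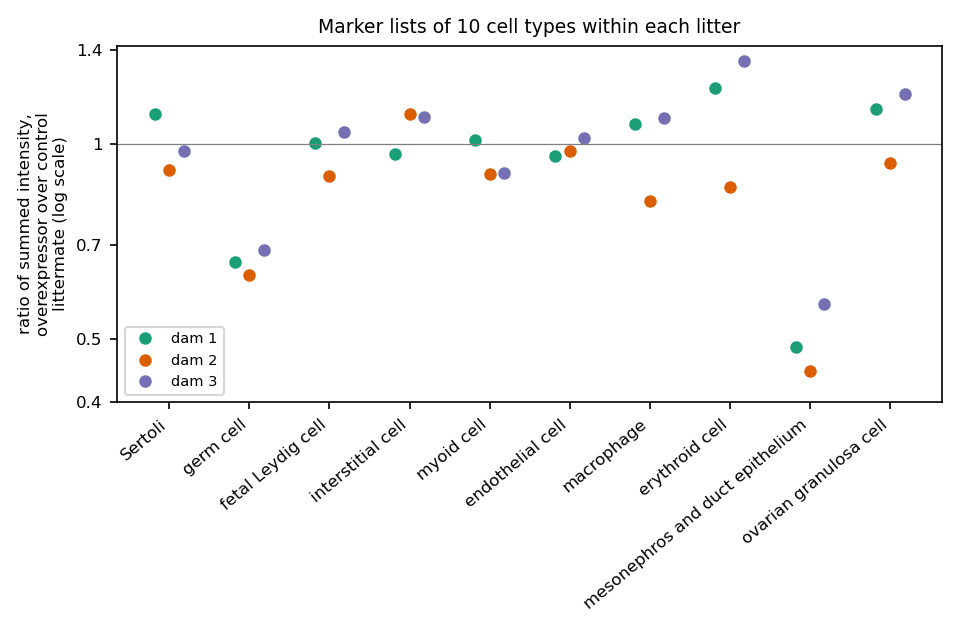
Ratio of the summed marker intensity of each overexpressor to that of its control littermate (vertical axis, log scale) for 10 cell types, with 1 point per dam. Germ cell ratios lie between 0.628 and 0.687 and those of the mesonephros and duct epithelium between 0.447 and 0.567. In controls Dppa4 weighs most in the germ cell sum, and Lhx1 and Cdh1 in that of the mesonephros and duct epithelium. Pax8 and Cdh16 of the latter list stood at log2 differences of -0.029 and -0.024, so its ratios are not read as a loss of duct tissue. The Sertoli ratios, 0.914 to 1.12, come mostly from the Sox9 probe, and within that list Amh was lower in each litter, with log2 differences of -1.59, -1.53 and -0.61.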

How the data were processed

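The submitters' processing notes name GenomeStudio 2010.3. The deposited values, per the file headers, are mean bead intensity per probe (linear, not normalized), the deposited count of beads, the standard error of the bead signal and the deposited detection p-value against each array's negative controls. The authors' processed table holds intensity values equal to the raw ones times 1 factor per array (0.855 to 1.15), with column medians of 105 to 118, linear and not centred per probe.

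Background correction, quantile normalization and the log2 step used neqc (offset 16, background from the deposited detection p-values) in limma 3.58.1, R 4.3.3. All tests are limma's two-sided moderated tests, Benjamini-Hochberg adjusted over all 19889 probes tested. A check on simulated data drew the noise of each array independently, so it does not cover the correlation of littermates given below. Intervals are 95% and not adjusted. A gene is represented by its probe with the highest mean (10999 genes). Of the probes 34885 had 1 symbol, 18 several and 10378 none; 34807 were updated through Entrez identifiers, and the gene table (GRCm38.p6) served for names, neighbours and promoters, since the files name no build. Named are the 10 members, list genes that passed with or without the litter block, the 2 of each pathway list with the smallest p, and the genes most like Aard and Ptgds; any other gene was chosen with its values known. Members, lists and tests were chosen with earlier results of these data known.

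Replicate numbers are dams in the labels, so the block pairs littermates. Littermates deviated from their group means together (correlations across probes of 0.252, 0.426 and 0.304, against -0.279 to -0.0138 for other pairs). Deviations from a group mean sum to 0, so other pairs tend to fall below 0 once littermates lie above it. The values of other pairs are therefore no separate baseline. The 3 animals per group limit the precision. Alternatives were the block, no background correction, median scaling, the authors' table, 2 other filters, a trended prior, array weights and each array left out.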

Additional observations from a re-analysis of the deposited data

How the results depend on the processing

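The count of 0 changed members held under 12 of 14 alternatives and was 1, Aard, in the authors' processed table and with a trended prior variance. The prostaglandin, iron, ERBB, pantetheine, collagen IX and clusterin receptor lists had 0 changed genes in all 14 (limma). Over all probes 113 changed, against 67 with no filter on dim probes, 202 with the trended prior, 157 with the replicate block and 32 to 101 with 1 array left out (42, 52 and 63 without controls 1, 2 and 3, and 32, 68 and 101 without overexpressors 1, 2 and 3). The 4 calls among other Sertoli markers became 1 with no filter, 8 with the trended prior and 0 to 6 with 1 array left out (0 without any control and without overexpressor 1 or 2). The 1 call among other beta-defensins became 0 with the replicate block, median scaling, the authors' table, no filter, or any 1 array left out. Members kept their sign under all alternatives except Defb19, at 0.093 with median scaling, 0.038 in the authors' table and -0.17 to 0.11 with 1 array left out, and Col9a3, at -0.65 to 0.30 with 1 array left out, where the sign turned without control 2 or overexpressor 3. These group differences with 1 array left out had no litter term, so the 2 groups then held unequal litters. Within each of the 3 dams Col9a3 was lower in the overexpressor. Of the dam test, chosen after seeing the data, 49 probes passed, against 702 with no background correction, 87 with median scaling, 749 in the authors' table, 10 with no filter, 781 with the trended prior and 27 to 61 with 1 array left out. For members that count was 1, then 0 with no filter, 2 with the trended prior and 0 with any 1 array left out. The causes were not tested. The median over all probes moved by under 0.1 under each scaling. The replicate block changed no call of a member. Signals close to background limit Vnn1, Erbb4 and 2 Col9a3 probes.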
